A study of Mus musculus with 51 samples.

Results

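The 8 genes described here were grouped as contractile genes of myoepithelial cells, the outer cell layer of the mammary epithelium. They are the actins Acta2 and Actg2, heavy chain Myh11, kinase Mylk, actin-binding proteins Cnn1 and Tagln, filament protein Des and receptor Oxtr. They were chosen by symbol, and every probe set annotated to 1 of these symbols alone was taken, which gave 15 probe sets for 8 of the 18192 genes on the array. The filter on dim values passed 13 of the 15, and all 8 genes kept at least 1 probe set. Values are log2 of the deposited intensity with a floor of 32, so that a log2 value of 5 is the floor; it was set by hand and does not measure the background of an array.

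The arrays come from a mouse model in which Cre under the Wap promoter switches on a conditional Etv6-NTRK3 knockin allele, and in which a Rosa-Stop-lacZ reporter marks the recombined cells. Sorted lacZ+ cells were profiled at the hyperplastic stage on 4 arrays from 4 mice, in primary tumors on 8 arrays from 6 mice, and in transplants on 7 arrays that trace back to 5 mice (passages 1 to 4). Unfractionated tissue was profiled as primary tumors on 23 arrays from 14 mice, as transplants on 4 arrays that trace back to 2 mice, and as wild type glands on 5 arrays from 5 mice. All transplants grew in RAG2-/- recipients, and all tumor and hyperplasia groups carry Wap-Cre and the fusion allele. The Wap promoter is that of a milk protein gene of secretory cells. Which epithelial layer the recombined cells and their descendants belong to was not tested here. Ages, hormonal state and strain of the mice are not given in the sources used here. Several tumors came from the same mouse, and the 2 arrays of 1 unsorted tumor were averaged, which left 50 replicates from 32 mice.

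Myoepithelial cells surround the alveoli and ducts and squeeze milk out when oxytocin reaches them. Oxytocin binds its receptor Oxtr, calcium rises, and the calmodulin-dependent kinase Mylk phosphorylates the myosin light chain, which lets smooth muscle myosin (Myh11) pull on smooth muscle actins (Acta2, Actg2). Calponin (Cnn1) and transgelin (Tagln) bind the actin filaments, and desmin (Des) is the intermediate filament of muscle cells. Smooth muscle cells and pericytes of vessels use the same genes, and Acta2 and Tagln are also made by activated fibroblasts, so none of these genes marks 1 cell type alone in unsorted tissue.

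Many smooth muscle genes are known targets of serum response factor, which binds a 10-letter site named the CArG box. The 250 bases before the transcription start were available for 5 of the 8 genes (Acta2, Cnn1, Mylk, Des and Oxtr) in the RefSeq promoter table of GRCm38.p6. The first of those printed here is that of Acta2, the member with the smallest fall from glands to tumors, and the second that of Cnn1, whose level was at the floor in most tumors. Acta2 lies on the minus strand at chr19:34255374-34255623 and Cnn1 on the plus strand at chr9:22099003-22099252, both written 5′ to 3′ along the gene's own strand. Capitals mark a CArG box with at most 1 G or C among its 6 core letters.
Acta2: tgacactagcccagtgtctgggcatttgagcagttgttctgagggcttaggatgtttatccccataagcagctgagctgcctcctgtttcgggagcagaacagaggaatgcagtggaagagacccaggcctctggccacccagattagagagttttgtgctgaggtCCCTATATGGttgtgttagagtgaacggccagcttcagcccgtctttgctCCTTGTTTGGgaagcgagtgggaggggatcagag
Cnn1: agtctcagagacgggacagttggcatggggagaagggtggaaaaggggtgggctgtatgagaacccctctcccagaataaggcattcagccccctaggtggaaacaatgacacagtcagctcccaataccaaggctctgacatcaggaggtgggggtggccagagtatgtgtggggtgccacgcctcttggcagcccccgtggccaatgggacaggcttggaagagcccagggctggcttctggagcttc
No exact CArG box was found in any of the 5 windows. The form with 1 G or C allowed was found at 2 places before Acta2, whose first bases lie at -84 and -34 relative to the start, and at none in the other 4 windows. The box reads the same way on both strands, so a search of 1 strand covers both. Of 32851 promoters in the table, 1.47% held an exact box, 8.59% the looser form and 0.67% at least 2 of the looser form. A match describes the letters and was not set against any binding data.

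In whole tissue the contractile genes were mostly lower in unsorted primary tumors than in wild type glands. Of the 8 genes, each read from its brightest probe set, 7 fell (Myh11, Cnn1, Mylk, Tagln, Actg2, Oxtr and Acta2) and 1 rose (Des), while 22.1% of all 27535 probe sets tested were called lower, 26.6% higher and 48.7% in either direction. A call is an adjusted p under 0.05 from limma with Benjamini-Hochberg adjustment over all probe sets tested, in a fit where arrays of 1 mouse were allowed to correlate. The median difference over the 8 genes was -2.36 on the log2 scale, against 0.07 over all probe sets tested. Because the tissue is a mixture, fewer myoepithelial cells and less RNA per cell cannot be told apart in these values.

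**Figure D1:**
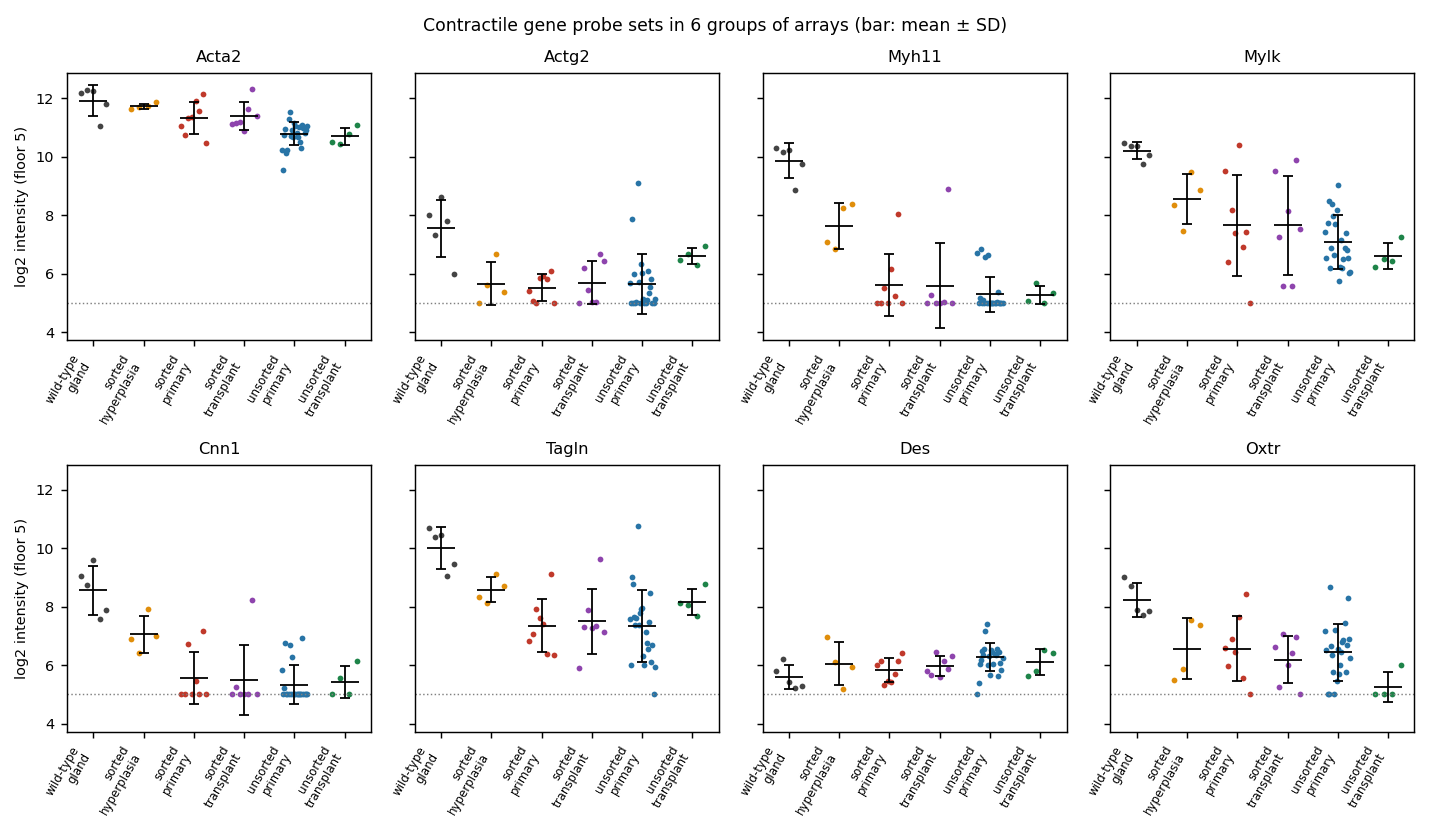
Log2 intensity of the brightest probe set of each of the 8 genes (y axis) in the 6 groups of arrays (x axis). Each point is 1 array, the black bar is the group mean with its SD over replicates, and the dotted line is the floor of 5. Myh11 and Cnn1 lie near the floor in most tumor arrays, whereas Acta2 lies between 9.55 and 12.33 on every array.

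The myosin heavy chain Myh11 had the largest difference among the 8 genes. Its intensities in the 5 glands were 1273, 1142, 1197, 469.2 and 854.9 (mean log2 9.86 ± 0.59, SD, n = 5). In the 23 unsorted primary tumor arrays they ran from 11.4 through a median of 25.4 to 114.4 (5.30 ± 0.60, n = 22 replicates), with 9 of 23 arrays above the floor. The groups did not overlap, and the dimmest gland was above the brightest tumor. The fitted difference was -4.54 ± 0.44 (SE), a 23.2-fold difference, with a limma adjusted p of 1.82e-11. With a floor of 100 the difference was -3.19, since the floor sets most tumor values. A further Myh11 probe set, 1418122_at, lay under the floor on all arrays and was not tested.

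Mylk, the kinase that starts contraction, fell on all 3 of its probe sets. The brightest, 1425506_at, read 1416, 1323, 1322, 865.9 and 1078 in the glands (10.21 ± 0.29) and from 54.0 through 116.6 to 518.3 in the tumors (7.08 ± 0.92). The groups did not overlap, but all 23 tumor arrays stayed above the floor. The fitted difference was -3.21 ± 0.60 (limma adjusted p = 2.09e-05). The probe sets 1425505_at and 1425504_at differed by -2.28 ± 0.36 and -1.06 ± 0.21 (limma adjusted p = 1.08e-06 and 4.1e-05).

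Of the actin-binding proteins, Cnn1 was near the floor in tumors and Tagln was not. Cnn1 read 523.5, 425.0, 783.8, 189.9 and 235.4 in the glands (8.56 ± 0.84) and from 7.9 through 17 to 120.3 in the tumors (5.33 ± 0.66), with 6 of 23 arrays above the floor. The groups did not overlap, and the fitted difference was -3.22 ± 0.42 (limma adjusted p = 2.33e-08). It was -3.83 with a floor of 16 and -1.89 with a floor of 100, so the size follows the floor while the call held. Tagln read 1637, 1330, 1395, 531.0 and 710.4 in the glands (10.01 ± 0.70) and from 24.8 through 164.8 to 1711 in the tumors (7.33 ± 1.24), a difference of -2.74 ± 0.53 (limma adjusted p = 2.99e-05). A single tumor array, unsorted primary replicate 8 with 1711, lay above the gland range, and the other 22 lay below it.

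The smooth muscle actins fell less on this scale. Acta2, the actin used to identify myoepithelium, read 4688, 5003, 4890, 2101 and 3530 in the glands (11.91 ± 0.53) and from 748.5 through 1810 to 2948 in the tumors (10.79 ± 0.39). The fitted difference was -1.13 ± 0.22, a 2.19-fold difference (limma adjusted p = 4.61e-05). The ranges met only because gland replicate 4 was low, an array that also had the highest 3' over 5' ratios of the control genes among the glands (log2 1.14 for Gapdh and 2.18 for Actb). Without that array the Acta2 difference was -1.35 (limma adjusted p = 8.4e-06). The probe set name 1416454_s_at marks probes that can match more than 1 transcript, so a share from related actins cannot be told apart. The other Acta2 probe sets carried little: 1444105_at was above the floor on 4 of 5 glands, 1 of 23 unsorted primary arrays and no other array, and 1456658_at was not tested.

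Actg2, the actin of visceral smooth muscle, read 260.3, 158.4, 395.5, 221.1 and 64.4 in the glands (7.55 ± 0.98) and from 18 through 35.6 to 549.2 in the tumors (5.66 ± 1.02). The groups overlapped, through unsorted primary replicates 8 (549.2) and 3 (232.1) and a few dimmer arrays. The fitted difference was -1.99 ± 0.47 (limma adjusted p = 0.00051), and it was -0.92 with a floor of 100.

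The receptor Oxtr fell on its brightest probe set and not on the other. With 1440888_at it read 517.5, 419.7, 234.3, 207.6 and 228.6 in the glands (8.23 ± 0.59) and from 19.2 through 92.3 to 411.3 in the tumors (6.44 ± 0.97), a difference of -1.80 ± 0.48 (limma adjusted p = 0.00152). The tumor arrays inside the gland range were 2 of 23. With 1426000_at the glands read at most 42.1 and the tumors had a median of 50.3, a difference of 0.45 ± 0.23 (limma adjusted p = 0.107). The probe sets of this gene therefore give no single value for it.

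Des was the only member called higher, and it was dim everywhere. With 1426731_at it read 55.4, 73.7, 42.7, 37.3 and 38.8 in the glands (5.58 ± 0.41) and from 28.6 through 79.1 to 168.4 in the tumors (6.26 ± 0.48), a difference of 0.63 ± 0.24 (limma adjusted p = 0.0276). With 1426732_at the difference was -0.39 ± 0.18 (limma adjusted p = 0.0649). The call was lost with a floor of 100 (adjusted p = 0.613) and without gland replicate 3, 4 or 5 (adjusted p = 0.0682, 0.0951 and 0.089), so the direction for Des rests on 1 dim probe set.

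**Figure D2:**
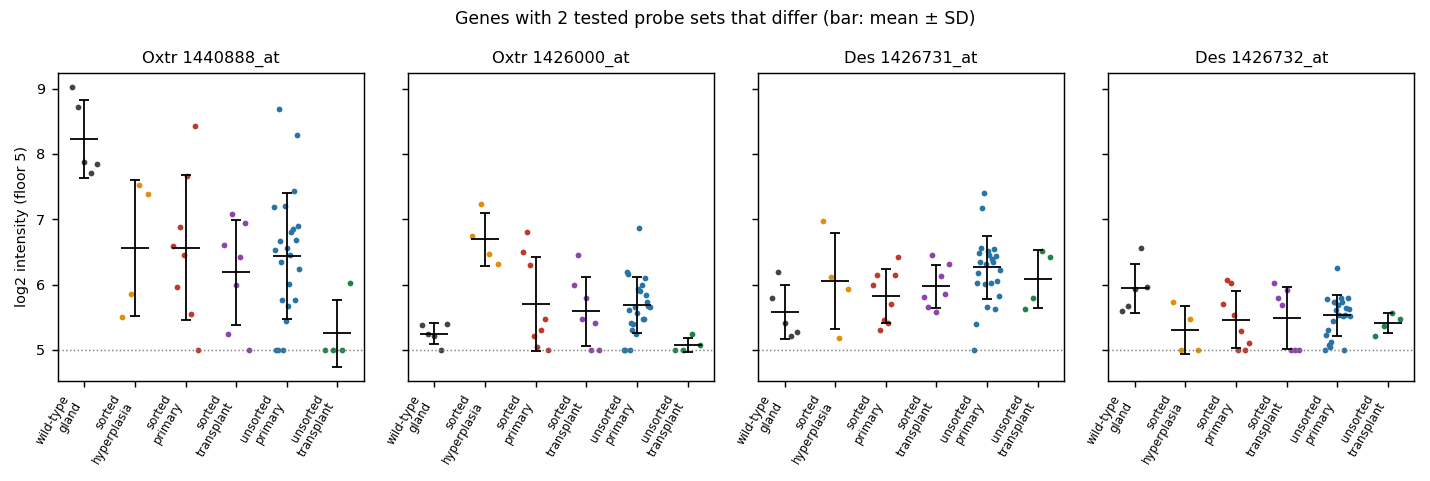
Log2 intensity (y axis) of the 2 tested probe sets of Oxtr and of Des in the 6 groups of arrays (x axis). Points are arrays, bars are group means with SD, and the dotted line is the floor. For Oxtr the glands are highest with 1440888_at but the sorted hyperplasia arrays are highest with 1426000_at, between 79.8 and 151.0 in intensity.

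The fall was not shared evenly by the other genes that act with the members. Of the 19 other smooth muscle contractile and anchoring genes tested, 11 were called lower in unsorted primary tumors than in glands, 1 higher and 7 neither, with a median difference of -0.79. Pdlim3, an anchoring protein of actin filaments, differed by -2.37 ± 0.48 (limma adjusted p = 6.06e-05). Myl9, the light chain that Mylk phosphorylates, differed by -2.36 ± 0.53 (limma adjusted p = 0.00026), and the filament protein Synm by -2.12 ± 0.39 (limma adjusted p = 1.29e-05). Itga8, an integrin, was the gene called higher (1.63 ± 0.37, limma adjusted p = 0.000269).

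Of the 8 genes for serum response factor and its partners, 2 were called lower and 1 higher. Srf itself differed by -1.29 ± 0.21 (limma adjusted p = 2.59e-06) and its partner Elk4 by -1.09 ± 0.17, while Mrtfa, the actin-sensing coactivator, differed by 0.63 ± 0.15. The list thus held calls in both directions and had a median of -0.12.

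Identity markers of the basal layer had a median difference of -0.69 as a list, against 0.07 over all probe sets and -0.79 for the other smooth muscle genes. Of 10 basal and myoepithelial identity genes tested, 2 were called lower (Mme, a surface peptidase, by -3.39 ± 0.49, and the factor Snai2 by -1.73 ± 0.63) and 1 higher (the integrin Itgb4, 2.99 ± 0.49). Krt5, which was not called and does not stand for the list, had a median of 891.5 in the glands. In the unsorted primary tumors its median was 961.8, in a range from 52.3 to 2802.5. The summed intensity of the list ran from 4439 to 6285 in the glands and from 542 to 13408 in these tumors.

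Markers of other cell types moved in the same comparison, and their part in the falls of the contractile genes was not tested. All 10 fibroblast and matrix genes and all 10 endothelial genes tested were called lower in tumors, and of 11 pericyte and vascular smooth muscle genes 5 were called lower and 3 higher. The summed fibroblast list ran from 21722 to 35915 in the glands and from 534 to 31422 in the tumors. The summed pericyte list ran from 2750 to 4676 in the glands and from 1594 to 4325 in the tumors. The median difference over the genes of that list was 0.11, but its summed intensity had a median of 3639 in the glands and 2367 in the tumors. Among its genes called lower, Rgs5 differed by -1.80 ± 0.42 (limma adjusted p = 0.000356). Summed skeletal muscle genes ran from 436 to 1061 in the glands and from 301 to 1172 in the tumors, and Myh4, Tnnt3 and Tnnc2 were at the floor in every gland. Of 9 luminal epithelial genes 4 were called higher and 1 lower, and the summed list ran from 10212 to 30469 in the glands and from 16440 to 35796 in the tumors. Of 4 adipocyte genes tested 1, Fabp4, was called, lower, and the summed adipocyte list ran from 2555 through a median of 5863 to 9129 in the glands and from 159 to 4525 in the tumors.

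Sorted hyperplastic cells stood between glands and tumors for several of the genes. Acta2 on its brightest probe set was not called different from glands. Against glands, 3 of 8 genes fell (Myh11, Actg2 and Cnn1) and none rose, where 10.1% of all probe sets were called lower, 10% higher and 20.1% either way. The sort, the fusion allele and the hyperplastic state differ together in this comparison and cannot be told apart. The median difference of the 8 genes was -1.59, against 0.03 over all probe sets.

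Myh11 read 136.4, 115.4, 304.2 and 333.3 in the 4 hyperplasia arrays (7.64 ± 0.78), all below the 5 glands. The fitted difference was -2.22 ± 0.59 (limma adjusted p = 0.00513). Cnn1 read 117.7, 84.2, 242.6 and 127.7 (7.05 ± 0.64), where only replicate 3 reached the gland range, and differed by -1.52 ± 0.56 (limma adjusted p = 0.0462). Actg2 read 22.8, 49.2, 102.7 and 41.3 and differed by -1.88 ± 0.63 (limma adjusted p = 0.0273).

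Acta2 at 1416454_s_at read 3180.5, 3310, 3373 and 3712 in hyperplasia (11.73 ± 0.10), inside the gland range on every array. The low end of that range is gland replicate 4 (2101). The other glands read 3530 or more, and only hyperplasia replicate 4 (3712) reached them. The fitted difference of this probe set was -0.19 ± 0.30, with a 95% interval from -0.78 to 0.41 (limma adjusted p = 0.723). The dim probe set 1444105_at, under the floor on all hyperplasia arrays, was called lower (-0.24 ± 0.07, limma adjusted p = 0.0154). Mylk at 1425506_at read 325.5, 177.6, 721.1 and 467.6, all below the glands, and differed by -1.66 ± 0.80 (limma adjusted p = 0.139), while its probe set 1425505_at fell by 1.97 on the log2 scale (SE 0.48, limma adjusted p = 0.00249). Tagln read 320.0, 283.1, 552.8 and 418.2 and differed by -1.43 ± 0.70 (limma adjusted p = 0.144).

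Oxtr gave opposite signs on its probe sets in hyperplasia. With 1426000_at it read 107.7, 151.0, 88.8 and 79.8, above every gland, a difference of 1.45 ± 0.31 (limma adjusted p = 0.000633). With 1440888_at it read 45.2, 57.6, 185.3 and 166.9, below every gland, a difference of -1.66 ± 0.63 (limma adjusted p = 0.054). Des at 1426731_at differed by 0.47 ± 0.32 (limma adjusted p = 0.32) and at 1426732_at by -0.64 ± 0.24 (limma adjusted p = 0.0495), again opposite in sign.

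The calls in hyperplasia depended on single arrays. Hyperplasia replicates 1 and 2 had brighter spike-in controls than the other hyperplasia arrays (mean log2 12.39 and 11.31, against 9.19 and 8.80), and without both of them none of the 3 genes passed, with Myh11 at -1.55 (adjusted p = 0.196). The Actg2 call was also lost without any 1 of hyperplasia replicates 1, 2 or 4 or gland replicates 1, 3 or 4 (adjusted p from 0.0518 to 0.0971), and that of Cnn1 without any 1 of hyperplasia replicates 1, 2 or 4 or gland replicates 1, 2 or 3 (adjusted p from 0.072 to 0.144).

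In the same comparison 9 of 19 other smooth muscle genes were called lower and none higher. The smoothelin gene Smtn differed by -2.28 ± 0.37 (limma adjusted p = 2.18e-05), Pdlim3 by -2.17 ± 0.64 (limma adjusted p = 0.0116) and Myl9 by -2.02 ± 0.70 (limma adjusted p = 0.035). Srf was the 1 regulator of 8 called lower (-1.24 ± 0.28). Basal identity markers were lower too, with 3 of 10 called (Krt17, Mme and Lama3), a median difference of -2.004 and a summed intensity from 772 to 2020. All 10 endothelial genes were called lower (median difference -1.72), as were 4 of 11 pericyte and vascular smooth muscle genes, with 1 higher (median -0.84). The summed endothelial list ran from 670 to 1853 in hyperplasia and from 2759 to 6233 in glands, and the summed pericyte list from 1233 to 2257 and from 2750 to 4676. Of the fibroblast markers 0 of 10 were called by limma, with a median difference of -0.34 and a summed intensity from 16483 to 25833 in these sorted cells, so the level of Acta2 was measured beside a fibroblast signal near that of whole glands. The part of these lists in the contractile values was not tested.

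**Figure D3:**
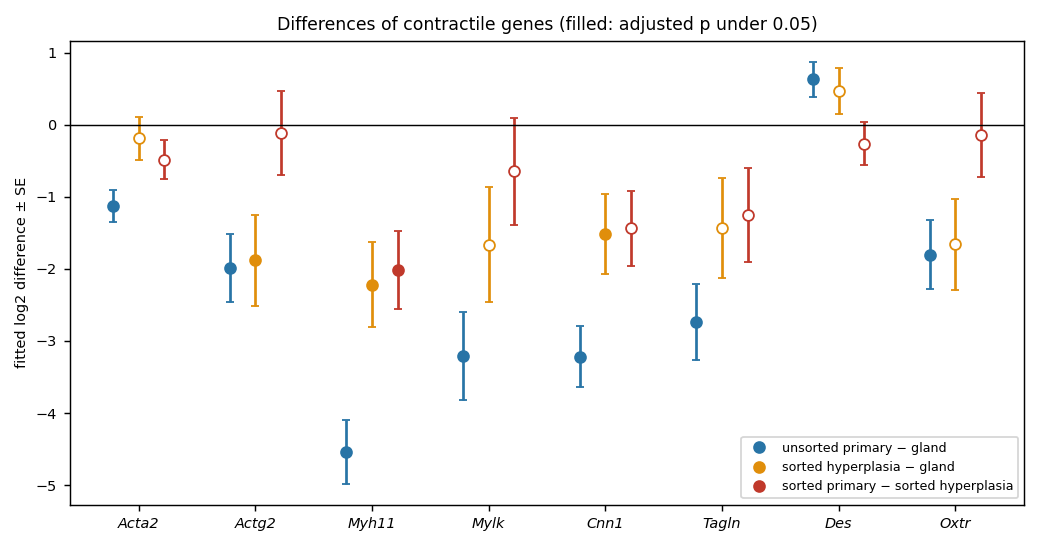
Fitted log2 differences with their SE (y axis) for the brightest probe set of each gene (x axis) in 3 comparisons, with filled circles for adjusted p under 0.05. Acta2 is near 0 for hyperplasia against glands (-0.19) and at -1.13 for tumors against glands, whereas Myh11 is below -2 in all 3 comparisons.

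From sorted hyperplasia to sorted primary tumors only Myh11 was called among the 8 genes, lower, where 2.1% of all probe sets were called lower and 3.03% either way. In the 8 sorted tumor arrays Myh11 ran from 14.5 through a median of 34.8 to 267.5 (5.62 ± 1.06), and 7 of 8 lay below every hyperplasia array. The fitted difference was -2.02 ± 0.54 (limma adjusted p = 0.027). The call was lost with a floor of 100 (adjusted p = 0.148), with the 2 groups fitted alone (0.497), without hyperplasia replicate 1, 3 or 4 (0.0638, 0.069 and 0.0732) and without replicates 1 and 2 together (0.0611).

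On the brightest probe sets all 8 fitted differences in this comparison were negative, from -2.02 to -0.11, and the other 7 did not pass. Their median was -0.56, against 0.008 over all probe sets tested. The sign was not shared by every probe set. Des at 1426732_at differed by 0.25 ± 0.22 and Acta2 at 1444105_at, under the floor in both groups, by 0.0004 ± 0.07. Cnn1 ran from 5.4 through 13.3 to 143.9 in sorted tumors, with 6 of 8 arrays below every hyperplasia array, and differed by -1.44 ± 0.52 (limma adjusted p = 0.121). Tagln ran from 81.4 through 153.0 to 549.0 and differed by -1.25 ± 0.65 (limma adjusted p = 0.331). Acta2 ran from 1415 through 2596.5 to 4499 (11.32 ± 0.56) and differed by -0.48 ± 0.28 (limma adjusted p = 0.389).

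Mylk had the widest spread of the sorted tumor values, from 19.9 through 169.7 to 1344 (7.65 ± 1.71), and differed from hyperplasia by -0.64 ± 0.74 (limma adjusted p = 0.724). Oxtr with 1426000_at differed by -0.87 ± 0.29 (limma adjusted p = 0.0841) and with 1440888_at by -0.14 ± 0.59. Actg2 and Des differed by -0.11 ± 0.58 and -0.26 ± 0.30. Of the 19 other smooth muscle genes Smtn alone was called, higher (1.32 ± 0.35, limma adjusted p = 0.0229), and of the 10 basal identity genes Cdh3 alone, higher (1.73 ± 0.47). The median differences of the smooth muscle and basal lists were 0.263 and 1.768, opposite in sign to the median of the members. The summed basal list ran from 1963 to 14541 in sorted tumors and from 772 to 2020 in hyperplasia. At the same time 5 of 10 fibroblast genes and 4 of 10 endothelial genes were called lower, and their part in the contractile values was not tested.

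Between sorted lacZ+ cells and unsorted tissue of primary tumors none of the 8 genes passed the threshold, although 24.4% of all probe sets were called. No mouse gave both sorted and unsorted primary arrays, so the sort and the mice cannot be told apart. Control genes differed too. The log2 Gapdh 3' over 5' ratio ran from -0.363 to -0.1088 in sorted primary replicates 1 to 4. It ran from -0.059 to 0.5938 in the unsorted primary arrays, and sorted primary replicates 5 to 8 lay inside that range (-0.0066 to 0.1053). In this limma fit 1 of the 8 genes, Acta2, had an unadjusted p under 0.05. Acta2 differed by 0.46 ± 0.19 (adjusted p = 0.0775), with 5 of 8 sorted arrays inside the unsorted range and 3 above it. Without the mouse block its adjusted p was 0.0213. Mylk differed by 0.90 ± 0.53 (95% interval -0.15 to 1.96), Myh11 by 0.30 ± 0.38 (-0.47 to 1.07), Cnn1 by 0.26 ± 0.37 (-0.47 to 1.00) and Des by -0.42 ± 0.21 (-0.84 to 0.00).

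Of the other smooth muscle genes 1 of 19 was called higher in sorted than in unsorted primary tumors and 2 lower. Of the serum response factor list 1 of 8 was called higher and 1 lower. These shares lay below or near the 24.4% of all probe sets. Csrp1, a LIM protein of smooth muscle, was higher in sorted tumors by 1.56 ± 0.41 (limma adjusted p = 0.00392) and Srf by 0.56 ± 0.19. Itga8 and Itga1 were lower by -1.05 ± 0.32 and -0.45 ± 0.16, and Mrtfa by -0.46 ± 0.13.

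Single sorted arrays stood high in several of the genes. Sorted primary replicate 7, 1 of 3 tumors of mouse F433, read 267.5 for Myh11, 143.9 for Cnn1, 549.0 for Tagln, 343.6 for Oxtr and 4499 for Acta2, each the highest of the 8 sorted primary arrays. Its Mylk, 172.5, was below that of replicates 1, 3 and 5, and its Myh11 and Cnn1 lay below every gland (469.2 and 189.9 at the lowest). The other tumors of that mouse read 70.9 and 38.2 for Myh11 and 43.7 and 10.5 for Cnn1. In this array the summed fibroblast markers were 3084 and the summed endothelial markers 379, both in the lower part of the sorted primary range (2660 to 32497 and 327 to 1163), while the pericyte list summed to 2717, the highest but 1 in a range from 1045 to 4257.

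Sorted transplant replicate 6, from mouse D396 at passage 3, read 478.1 for Myh11, 299.3 for Cnn1, 787.7 for Tagln, 955.8 for Mylk and 5139 for Acta2, again each the highest of its group. Its Myh11, Mylk, Cnn1 and Tagln values lay inside the gland range. Its summed fibroblast (3296), endothelial (271) and pericyte (1775) lists were low to middling for the group, whose ranges were 1980 to 16675, 271 to 661 and 1152 to 2182. Its basal identity list summed to 17232, in a group range from 2287 to 21891. Sorted transplant replicates 5 and 1 had higher basal sums (21891 and 17276) with Myh11 at 32.7 and 14.8. In the other 6 sorted transplant arrays Myh11 read at most 38.5 and Cnn1 at most 37.8.

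Mylk could be high where Myh11 and Cnn1 were low. Sorted primary replicate 5 (mouse F433) read 1344 for Mylk, inside the gland range, with 70.9 for Myh11 and 43.7 for Cnn1. Sorted primary replicate 1 (mouse F464) read 730.6 for Mylk with Myh11 and Cnn1 under the floor, and sorted transplant replicate 1 (mouse D279) read 741.6 with both under the floor. Acta2 on these arrays, in the same order, was 3829, 2144 and 2203. In the scatter of Mylk against Myh11 the last 2 of these arrays are high Mylk values at the Myh11 floor, and the first lies above that floor.

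**Figure D4:**
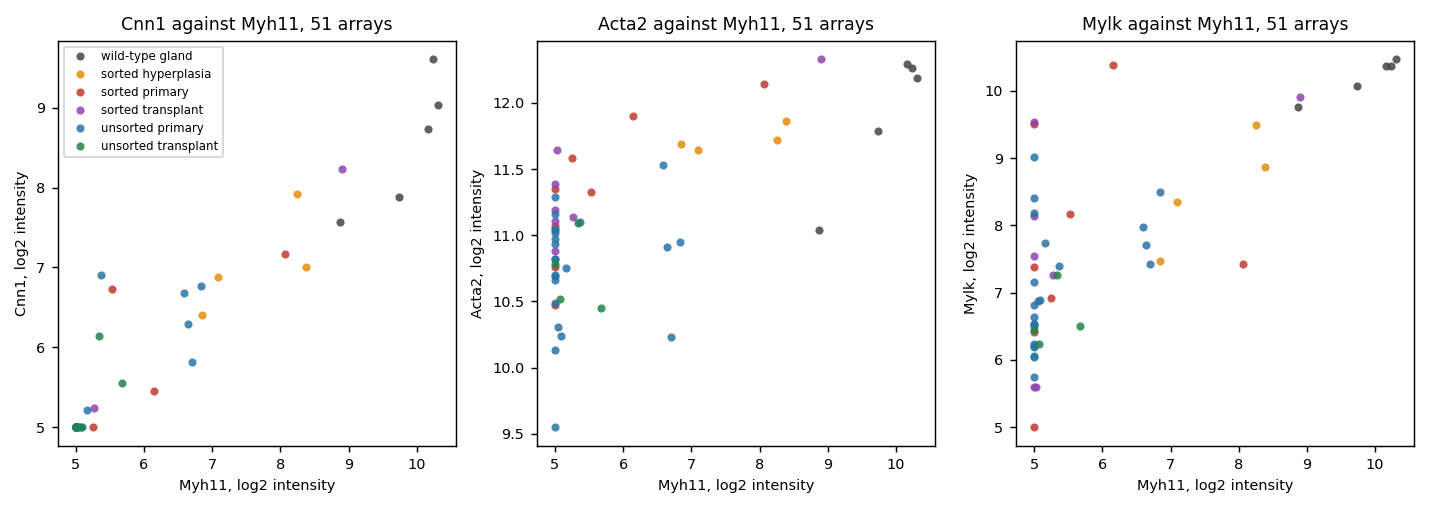
Log2 intensities of Cnn1, Acta2 and Mylk (y axes) against Myh11 (x axis), 1 point per array in each panel, coloured by group. Cnn1 leaves the floor of 5 almost only where Myh11 does, whereas Acta2 and Mylk spread over their ranges at the Myh11 floor of 5.

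Transplantation was followed by no called change in the members. Between sorted transplants and sorted primary tumors none of the 27535 probe sets was called by limma (0.0%), with 1148 at an unadjusted p under 0.05, and none of the 8 genes was among those. The fitted differences ran from -0.52 for Mylk (± 0.59) to 0.26 for Des (± 0.24), and that of Myh11 was -0.07 ± 0.43, or 0.27 without sorted primary replicate 7 and -0.58 without sorted transplant replicate 6. Over the 7 arrays Myh11 ran from 14.8 through 28.2 to 478.1, Cnn1 from 20.5 through 29.0 to 299.3, Tagln from 60.3 through 157.7 to 787.7 and Acta2 from 1884 through 2338 to 5139. The groups overlapped for every one of the 8 genes.

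The tumor of sorted primary replicate 7 was also measured after transplantation, at passage 1 (sorted transplant replicate 5). Myh11 went from 267.5 in the primary to 32.7 in the transplant, Cnn1 from 143.9 to 29.0, Tagln from 549.0 to 159.8, Oxtr from 343.6 to 85.5 and Acta2 from 4499 to 3183. Each is 1 array with no replicate, so these values carry no test.

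Between unsorted transplants and unsorted primary tumors none of the 8 genes was called by limma, where 1.13% of all probe sets were, and 1 of the 8, Oxtr, had an unadjusted p under 0.05. Actg2 read 88.9, 101.9, 78.8 and 123.9 in the 4 transplants (6.60 ± 0.28), above the median of the primary tumors, and differed by 1.08 ± 0.55 (adjusted p = 0.458). Tagln read 280.3, 264.1, 204.9 and 433.9 and differed by 0.99 ± 0.61 (adjusted p = 0.592). Oxtr with 1440888_at read 29.2, 27.2, 25.8 and 65.0, only the last above the floor, and differed by -1.23 ± 0.55 (adjusted p = 0.353). All 4 values of each gene lay inside the range of the primary tumors. The difference between the sorted and the unsorted transplant effect was called for none of the 8 genes and for 0.131% of all probe sets, and its fitted values ran from -0.94 to 0.95.

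The order of the groups by mean log2 level differed between the genes. For Acta2 it was glands (11.91), sorted hyperplasia (11.73), sorted transplants (11.38), sorted primary tumors (11.32), unsorted primary tumors (10.79) and unsorted transplants (10.71). No neighbouring pair in that order that was tested passed the threshold: glands and hyperplasia, sorted transplants and sorted primary tumors, sorted and unsorted primary tumors, and unsorted primary tumors and transplants. For the last pair the fit, which weights arrays by mouse, had the opposite sign to the means (0.13 ± 0.26, transplants minus primary tumors). For Myh11 the order was glands (9.86), hyperplasia (7.64), sorted primary tumors (5.62), sorted transplants (5.60), unsorted primary tumors (5.30) and unsorted transplants (5.27), where the first 2 steps down passed and the means of the last 4 groups lay closer together than the SD of any of them except the unsorted transplants (0.30).

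Among the unsorted primary tumors the members did not vary as a single block. Over 22 replicates from 14 mice, Myh11 and Cnn1 correlated at r = 0.841 (Spearman 0.863), at 0.753 without the 2 replicates farthest from the Myh11 median and at 0.688 over mouse means, though most values of both genes lie at the floor. Mylk and Tagln correlated at 0.699 (Spearman 0.813, and 0.806 over mouse means) and Cnn1 and Tagln at 0.648 (Spearman 0.622, and 0.669 over mouse means). Acta2 correlated weakly with the other contractile genes, at 0.185 with Myh11, 0.242 with Tagln, 0.31 with Mylk (-0.008 over mouse means) and 0.345 with Cnn1. These values describe arrays that share mice and array scale, and no test was made of them.

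Actg2 and Tagln correlated at 0.701 (Spearman 0.416), but at 0.24 without the 2 farthest replicates, which are unsorted primary replicates 8 and 3. Those arrays had summed fibroblast lists of 31422 and 27379, the highest of the 23 arrays, against a median of 3504, and their part in the actin values was not tested. Over all 22 replicates the mean of the fibroblast list correlated at 0.745 with Tagln (0.588 without the 2 replicates farthest from the Tagln median), at 0.782 with Actg2 (0.393 without those farthest for Actg2), at 0.498 with Mylk (0.746 over mouse means) and at 0.073 with Acta2. The mean of the pericyte list correlated at 0.635 with Actg2 (0.372 without the 2 farthest), 0.53 with Tagln (0.411) and 0.062 with Myh11 (0.226). The mean of the basal identity list correlated at 0.459 with Cnn1 (0.307 without the 2 farthest), 0.42 with Myh11 (0.128, and Spearman 0.182) and -0.04 with Tagln (-0.06).

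The genes whose pattern was most like each member, by Pearson r over the same 22 replicates among 14950 genes, also differed from member to member. For Myh11 they were Dsg1b (0.88), Irx4 (0.88) and Hdgfl3 (0.86), and for Cnn1 they were Ephx3 (0.90), the light chain gene Myl9 (0.86) and Dsg1b (0.86). For Actg2 they were Cd248, Ccn4 and Colec12 (each 0.92), and for Tagln they were Lhfp (0.89), Fkbp7 (0.86) and Ppic (0.85). For Mylk they were Rnase4 (0.88), Plpp1 (0.84) and Ang (0.81), and for Acta2 they were Slc35e3 (0.84), Efcab1 (0.83) and Mark1 (0.77). For Des and Oxtr the nearest were Cit (0.80) and Saysd1 (0.75). Several of these genes were near the floor in most tumors, Dsg1b with a median intensity of 7.2 and Ccn4 with 19.7, so that a few arrays set their r.

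Repeat measurement of 1 unsorted tumor bounds how finely these values can be read. The 2 arrays of that tumor correlated at r = 0.987 over all probe sets tested, but Myh11 read 103.9 on one and 21.4 on the other, and Tagln 190.2 and 63.7. The other 6 genes differed by 0.40 to 0.89 on the log2 scale between the arrays. The median of an array was 42.9 at the lowest and 57.8 at the highest, and precision in each comparison is limited by how many arrays it holds.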

How the data were processed

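Trizol-extracted, column-purified total RNA was biotin-labelled, per the labels' protocols, and 51 samples were each hybridized to an Affymetrix mouse MOE430.2 array. The table deposited by the authors holds 1 linear intensity per probe set and array; the steps from scanner to intensity, and any scaling, are not given in the sources used here. Here intensities under 32 (37.4% of them) were raised to 32 before log2, with no further scaling.

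Platform symbols were brought up to date by Entrez number against RefSeq (GRCm38.p6). Of 45101 probe sets, 64 controls and 1 outlying probe set were dropped, and 34944 carried a single symbol, 932 several and 9160 none. Single-symbol probe sets entered the test when they exceeded their array's 40th percentile on 4 or more arrays (27535). A gene is read from its brightest probe set over all arrays.

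One limma 3.58.1 model (R 4.3.3, lmFit, eBayes) covered the 6 groups, and duplicateCorrelation modelled arrays of the same mouse (consensus 0.363). Fitted differences are therefore weighted by mouse and need not equal differences of means. Benjamini-Hochberg adjustment ran over all 27535. The fit was tested on simulated data. Tumors of 1 mouse may not be independent, and the fit models this only through 1 correlation shared by all probe sets. The p-values set each difference against the spread of these samples within groups, pooled over the 6 groups. Named genes were all members, up to 3 called genes with the largest differences per list and comparison, and the 3 most alike genes per member. Krt5 and the skeletal muscle genes at the floor were named outside this rule. Lists covered SRF and myocardin regulators, other smooth muscle, basal, pericyte, fibroblast, endothelial, skeletal muscle, luminal and adipocyte genes, and 1 further list is not reported here. Members and lists were chosen with earlier results of these data known. Alternatives were other floors, quantile normalization, no filter, no mouse block, 1 probe set per gene, fewer groups, sorted arrays with a low Gapdh 3' over 5' ratio, and arrays left out. Figures used Python 3.11.15 and matplotlib 3.10.9.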

Additional observations from a re-analysis of the deposited data

Results flagged for a closer look

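In groups of 4 to 10 replicates, each member probe set was examined for a lone highest or lowest value by Dixon's 95% criterion. For values not tied at a floor it marks about 1 in 20 groups by chance. Of the 61 groups examined 5 held a lone value. Myh11 in sorted primary replicate 7 had a log2 intensity of 8.06, far above the other 7 arrays of its group. Sorted transplant replicate 6 stood alone for Myh11 (8.90), Cnn1 (8.23) and the Mylk probe set 1425504_at (6.74). Myh11 was above the floor on only 4 of 8 sorted primary and 3 of 7 sorted transplant arrays, and Cnn1 on 2 of 7 sorted transplants. The chance rate therefore does not apply to these Myh11 and Cnn1 groups. Oxtr with 1440888_at stood at 6.02 in unsorted transplant replicate 4, where the other 3 arrays were at the floor, so that any value above the floor would have stood alone.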

How the results depend on the processing

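For the 8 genes in all comparisons, and the further probe sets named for Mylk, Oxtr and Des, 725 of 830 alternative values kept their direction and their side of the threshold, 39 lost a call, 16 gained one and 50 changed sign. None of the 50 passed the threshold, and 33 of them were in the transplant comparisons. The falls of Myh11, Cnn1, Mylk, Tagln, Actg2, Oxtr and Acta2 in unsorted primary tumors against glands kept their call under every alternative run.

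The share of probe sets called is given in percent of those tested, a unit chosen after seeing the data, with 1 array left out as a range; where the number called moved by over 1.5 times it is added in parentheses. With 1 probe set per gene, where 15150 were tested, the number moved to 7722 in tumors against glands, 3832 in sorted against unsorted tumors and 3229 in hyperplasia against glands, from 13418, 6713 and 5538. For sorted tumors against hyperplasia it was 4.87% (1342, from 834) without the mouse block, 0.055% (15) with the 2 groups alone, 0.479% (132) without hyperplasia replicates 1 and 2 together and 0.857% to 5.23% (236 to 1439) with 1 array left out, lowest without hyperplasia replicate 1 and highest without replicate 4. For hyperplasia against glands it was 6.73% (1852) without both replicates. Sorted transplants had 0.00474% (1) with a floor of 100, 0.0182% (5) among arrays with a low Gapdh ratio and 0.0% to 0.00726% (0 to 2) with 1 array left out. Unsorted transplants had 0.701% (193, from 311) with a floor of 16, 2.91% (613) with a floor of 100, 6.72% (1850) without the block, 1.72% with the 2 groups alone and 0.458% to 1.44% with 1 array left out, lowest without unsorted transplant replicate 1 (126) and next without replicate 2 (154). The difference of the transplant effects had 0.0508% (14, from 36), 0.607% (128) and 1.48% (408) under the first 3 of these, 0.0858% (13) with 1 probe set per gene and 0.069% to 0.385% (19 to 106) with 1 array left out, lowest without sorted transplant replicate 6 and highest without unsorted transplant replicate 3. Member probe sets called higher in tumors against glands numbered 0 with a floor of 100, 2 with the 2 groups alone and 0 to 1 with 1 array left out. Those called lower in sorted tumors against hyperplasia numbered 2 without the block, 0 with a floor of 100, with the 2 groups alone or without both replicates, and 0 to 1 with 1 array left out. Sorted against unsorted tumors had 1 member higher without the block. In hyperplasia against glands the members called higher numbered 0 with 1 probe set per gene and without both replicates, and those called lower 3 and 0, or 2 to 7 with 1 array left out (lowest without gland replicate 3). Apart from fewer probe sets tested or fewer samples, the cause was not tested.

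The sign changes were these. For sorted tumors against hyperplasia, with 1 array left out, Actg2 ran from -0.34 to 0.23, Des from -0.55 to 0.046 and Oxtr from -0.49 to 0.18; Des was 0.24 without replicates 1 and 2, and Oxtr 0.11 among arrays with a low Gapdh ratio. For sorted against unsorted tumors, Myh11 was -0.15 among those arrays, Tagln -0.052 and Oxtr 0.070 with a floor of 100, Actg2 0.003 with no filter, and Oxtr 0.023 with quantile normalization, 0.126 without the block, 0.000 with 1 probe set per gene and 0.028 with the 2 groups alone; with 1 array left out Actg2 ran from -0.072 to 0.10 and Tagln from -0.16 to 0.15. Des in hyperplasia against glands was -0.023 without replicates 1 and 2. For sorted transplants, Acta2 was -0.046 and Tagln -0.20 among arrays with a low Gapdh ratio, Myh11 0.11 and Cnn1 0.12 with a floor of 100, Cnn1 0.13 with a floor of 16 and Mylk 0.002 without the block. With 1 array left out Acta2 ran there from -0.055 to 0.18, Actg2 from -0.012 to 0.21, Myh11 from -0.58 to 0.27, Cnn1 from -0.59 to 0.082 and Tagln from -0.13 to 0.45. For unsorted transplants, Cnn1 was -0.026 and Des -0.044 with a floor of 100, and Acta2 -0.084 and Des -0.17 without the block; with 1 array left out Acta2 ran from -0.049 to 0.19, Cnn1 from -0.20 to 0.29 and Des from -0.060 to 0.23. In the difference of the transplant effects, Actg2 was 0.011, Mylk 0.054 and Cnn1 0.15 with a floor of 100, Myh11 -0.10 with a floor of 16, and Acta2 0.14 and Mylk 0.47 without the block; with 1 array left out Acta2 ran from -0.19 to 0.15, Myh11 from -0.43 to 0.43, Mylk from -0.57 to 0.14 and Cnn1 from -0.68 to 0.064. Acta2 and Mylk correlated at -0.008 over mouse means. Leaving out sorted primary replicate 7, sorted transplant replicate 6 or unsorted primary replicate 8 was chosen after seeing the data. No paired analysis was possible by replicate number because these numbers are only names in order of deposit. Pairing by mouse entered the fits as the random block; 2 mice had both sorted primary and sorted transplant arrays and 1 both unsorted kinds, and a fit with mouse as a fixed block was not run. Values near the floor limit what the arrays show for Myh11, Cnn1, Actg2, Des and Oxtr.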
